A study of Mus musculus with 18 samples.

Results

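The Schlafen genes are a family of interferon-induced genes that mouse chromosome 11 carries side by side. The 7 members described here, Slfn1, Slfn2, Slfn3, Slfn4, Slfn5, Slfn8 and Slfn9, were chosen by gene symbol from 24485 genes listed in each of 18 RNA-seq libraries, and all 7 had reads and were tested. The cells were bone marrow-derived macrophages (BMDMs), grown for 6 days in L929-conditioned medium from 3 male Il10-/- mice of 12 weeks on the C57BL/6J background, and each mouse gave a library to each of 6 groups. BMDMs from every mouse received 500 nM (+)-JQ1, 10 ng/mL IL-10 or neither for 12 hours, and then 50 ng/mL LPS or PBS for 4 more hours. This gave the groups Unstimulated, JQ1, IL-10, LPS, LPS + JQ1 and LPS + IL-10 with 3 libraries in each. The study's methods name a vehicle control for the pretreatment, while the titles of the Unstimulated and LPS libraries read Untreated. Whether those cells received vehicle cannot be told from this. All groups, controls included, lack functional IL-10 of their own, so that IL-10 was present in the cultures where it was added and no wild-type macrophages stood beside them.

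Schlafen proteins take their name from the German word for sleeping, because Slfn1 and Slfn2 were first studied as brakes on the growth of resting T cells, and Slfn2 is also needed for quiescence of monocytes and protects transfer RNAs from cleavage. All members share a common core, which is nearly the whole of the short Slfn1 and Slfn2 proteins and is extended in the intermediate Slfn3 and Slfn4, while the long Slfn5, Slfn8 and Slfn9 carry a helicase-like region in addition. In macrophages the family is known as a target of Toll-like receptors and of type I interferon, which the cells secrete after lipopolysaccharide (LPS) and sense through a receptor that activates transcription factors such as STAT2 and IRF9. JQ1 displaces bromodomain and extraterminal (BET) proteins from acetylated histones, and IL-10 is a cytokine that restrains macrophage inflammatory genes.

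The members lay in a cluster of 263.8 kb on chromosome 11 (mm9, chr11:82764851-83028656). In order along the chromosome they were Slfn5 (82764851 to 82776443, plus strand), Slfn9 (82793131 to 82805332, minus strand), Slfn8 (82815660 to 82834312, minus strand), Slfn2 (82878614 to 82884180, plus strand), Slfn1 (82930351 to 82936172, plus strand), Slfn4 (82988688 to 83003723, plus strand) and Slfn3 (83004832 to 83028656, plus strand). The pseudogene Slfn10-ps sat between Slfn8 and Slfn2. Because the genes arose by duplication, their transcripts share sequence. Of all runs of 50 bases, the length of a read, 14.6% in Slfn8 transcripts and 14.2% in Slfn9 transcripts also occurred in another Schlafen transcript, mostly that of Slfn10-ps. The share was 13.9% for Slfn3 and 8.07% for Slfn4, 4.27% for Slfn2, 0.606% for Slfn1 and 0 for Slfn5. RSEM divided reads that matched several genes, so the split between these relatives, above all Slfn3 against Slfn4 and Slfn8 against Slfn9 and Slfn10-ps, is an estimate.

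The promoters are shown because the members answered together to LPS but unequally to JQ1. Their letters came from RefSeq (GRCm38.p6, which is another build than that of the read counts), where all 7 members matched. Of the 8 promoters listed for the members, the first listed of each member was used. The 250 bases before and the 50 bases after each start site were searched on both strands, and all matches in the members lay before it. The interferon-stimulated response element, searched as GAAANNGAAA, was found before Slfn5, Slfn8 and Slfn9 and in 3.44% of 32851 mouse promoters. These windows of 60 bases, written on the strand of the gene, show the match in capitals.
Slfn5 (chr11:82951922-82951981, plus strand, match from -155 to -146): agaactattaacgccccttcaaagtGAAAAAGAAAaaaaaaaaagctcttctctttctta
Slfn8 (chr11:83020824-83020883, minus strand, match from -48 to -39): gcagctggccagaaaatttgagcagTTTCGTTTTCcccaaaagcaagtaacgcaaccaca
Slfn9 (chr11:82991841-82991900, minus strand, match from -45 to -36): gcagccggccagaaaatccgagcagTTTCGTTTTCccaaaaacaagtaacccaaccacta
The Slfn8 and Slfn9 matches lay on the opposite strand of the gene. The promoters of Slfn8 and Slfn9 were 80.8% identical, whereas the other 20 pairs lay between 46.5% and 53.0%.

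The remaining members held no such match. A search for any run of letters shared by at least 4 members, with the length lowered until a run was found, returned ACTTCCTGG. This run of 9 letters is present before Slfn1, Slfn2, Slfn3 and Slfn4 and in 277 promoters (0.843%). Such a search is built to return a run, so the find itself does not set these genes apart. The run was picked after the sequences had been read, and is shown for comparison with the expression values.
Slfn1 (chr11:83116720-83116779, plus strand, run from -74 to -66): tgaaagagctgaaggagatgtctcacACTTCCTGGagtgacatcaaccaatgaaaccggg
Slfn2 (chr11:83065031-83065090, plus strand, run from -55 to -47): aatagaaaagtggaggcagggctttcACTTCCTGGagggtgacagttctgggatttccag
Slfn3 (chr11:83191262-83191321, plus strand, run from -42 to -34): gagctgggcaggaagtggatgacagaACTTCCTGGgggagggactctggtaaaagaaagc
Slfn4 (chr11:83175087-83175146, plus strand, run from -73 to -65): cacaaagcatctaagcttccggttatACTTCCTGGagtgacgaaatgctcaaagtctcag
The gamma-activated site searched as TTCNNNGAA (8.30% of promoters) and the NF-kB site searched as GGGNNTTTCC (1.63%) matched no member in the bases searched. The AP-1 site searched as TGANTCA (7.81%) matched Slfn4 from -34 to -28, on both strands because it reads alike in either direction. These matches describe letters in a window and do not show binding.

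**Figure D1:**
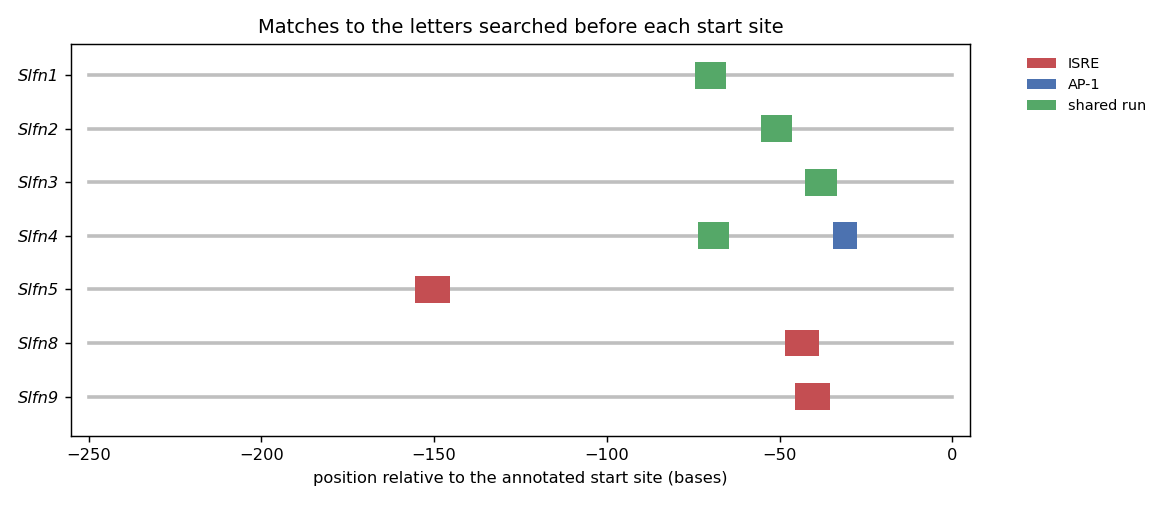
Position of each match in the 250 bases before the annotated start site (x axis, bases from the start site) of the 7 Schlafen genes (y axis), with colours for the ISRE letters, the AP-1 letters and the shared run of 9 letters. The ISRE letters stand before Slfn5, Slfn8 and Slfn9, and the shared run before Slfn1, Slfn2, Slfn3 and Slfn4.

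Libraries held between 6781952 and 28289498 estimated counts on genes, and the shallowest was Unstimulated replicate 2, in which 3 counts, the floor used here, corresponded to 0.442 CPM. All 7 macrophage markers were above 3 counts in every group and summed to between 12550 and 28310 TPM per library (TPM is a level per transcript length). Markers of T cells, in which Slfn genes are also active, summed to at most 4.64 TPM, and nearly all of that was Lck, at 3.88 to 4.46 TPM in LPS against at most 0.52 TPM in LPS + JQ1. Cd3e and Cd3d did not pass 0.25 TPM in any library. B cell, neutrophil, dendritic cell and fibroblast markers summed to at most 13.3 TPM, with Ly6g at 0 throughout. The Il10 row was counted at 27.1 to 176.7 normalised counts in these Il10-/- cells, and whether those reads came from the deleted part was not determined. Unstimulated replicate 1 stood apart from the other unstimulated libraries in interferon target genes. It held 245.3 normalised counts of Ifit1 against 55.8 and 77.1, and 175.9 of Isg15 against 71.0 and 71.1. It was also the highest of the 3 unstimulated libraries for 6 of the 7 members by normalised count, all but Slfn3. Some values against the Unstimulated group are therefore given below without it or mouse by mouse.

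**Figure D2:**
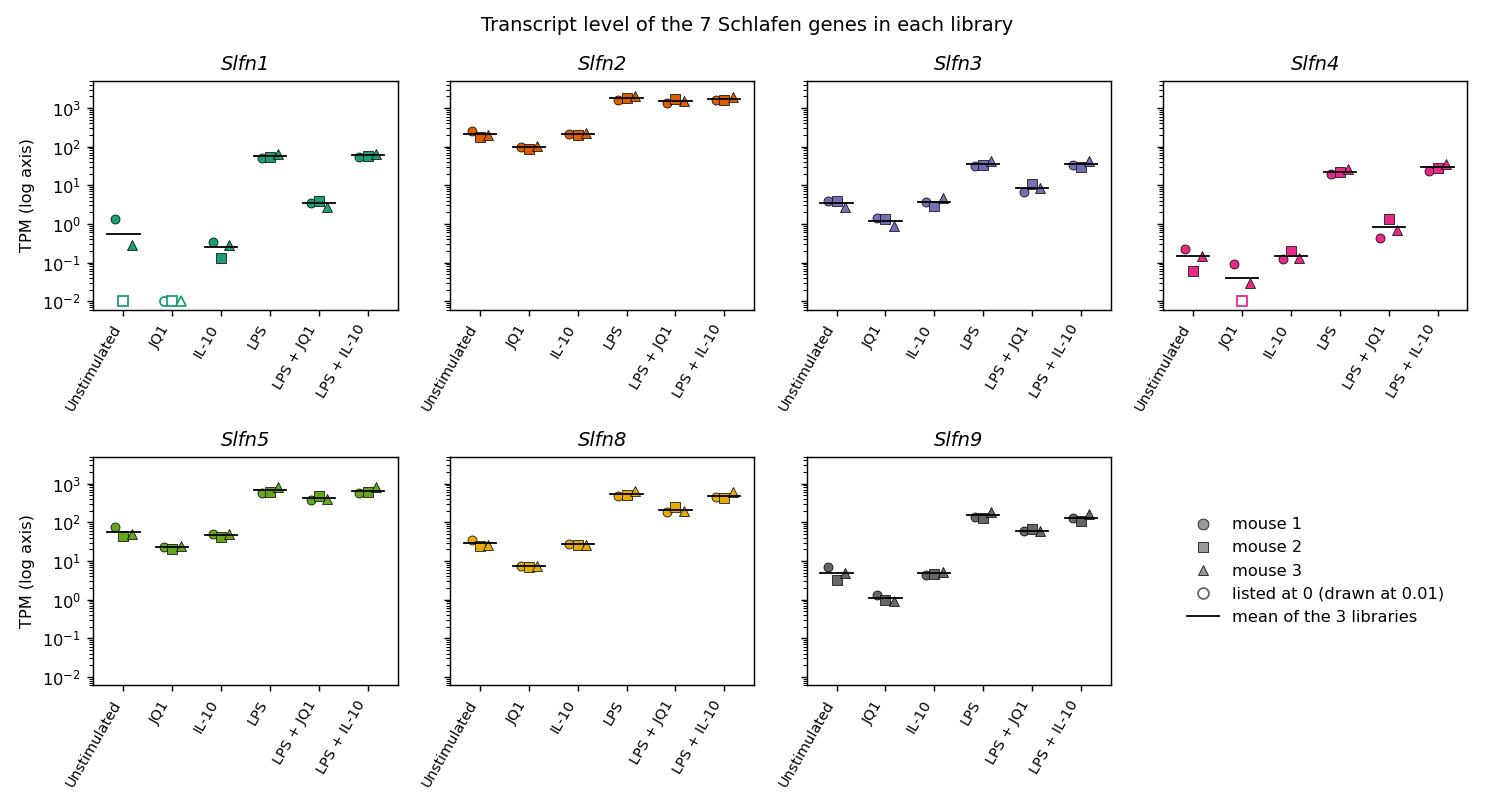
TPM (log axis) of each Schlafen gene in each library, by group, with a symbol for each mouse and a line at the mean of the 3 libraries. Open symbols drawn at 0.01 are libraries in which the gene is listed at 0, which were all 3 JQ1 libraries and Unstimulated replicate 2 for Slfn1, and JQ1 replicate 2 for Slfn4.

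At rest the family spanned more than 3 orders of magnitude per length. Slfn2 was the most abundant member per length, with 257.8, 175.8 and 204.5 TPM in Unstimulated replicates 1, 2 and 3. Slfn5 followed at 74.2, 43.1 and 51.0 TPM and Slfn8 at 35.7, 24.7 and 26.4 TPM, and none of these ranges overlapped. Slfn9 (3.22 to 6.79 TPM) and Slfn3 (2.78 to 3.95 TPM) overlapped each other. Slfn1 was listed at 1.35, 0 and 0.28 TPM and Slfn4 at 0.23, 0.06 and 0.15 TPM, and these ranges overlapped too. Behind the Slfn1 values stood 21, 0 and 5 counts, so the resting level of Slfn1 was near the limit of detection in the replicates other than the first.

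LPS raised all 7 members, beside 31.6% of all 14965 genes tested that were called higher and 32.9% called lower. The median log2 fold change of the members was 5.05, and that of all genes was -0.07. No LPS library overlapped an unstimulated library for any member, and the share of all genes for which this held was not counted. In bulk RNA, a change of level per cell and a change in the share of cells that express a gene cannot be told apart. With LPS, macrophage markers went from a sum of 22420 to 24040 TPM in Unstimulated to 12550 to 13700 TPM. Lyz2 held most of both sums, and Adgre1 went the other way, from 649.1 to 708.7 TPM to 794.1 to 1028 TPM. T cell markers went from 0.20 to 0.60 TPM to 3.99 to 4.64 TPM, which after LPS was nearly all Lck. Dendritic cell markers, all 4 above 3 counts in both groups, went from 0.11 to 0.95 TPM to 2.08 to 2.82 TPM. Of these, Xcr1 and Zbtb46 rose without overlap, and Flt3 and Clec9a overlapped. The part of these lists in the result was not tested. Values are normalised counts, which are estimated counts divided by a DESeq2 size factor, and a change was called at a Benjamini-Hochberg adjusted p under 0.05 from the DESeq2 Wald test over all genes.

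The least abundant members changed most. Slfn4, a gene known for its induction in macrophages by Toll-like receptor ligands, was at 6.17, 1.69 and 4.02 normalised counts in the Unstimulated libraries and at 968.5, 1053 and 1114 in the LPS libraries. Its log2 fold change was 7.89 (SE 0.41, adjusted p = 2.41e-81). Slfn1, a growth-restraining gene in T cells, went from 16.2, 0 and 3.35 to 1141, 1130 and 1258 normalised counts. The log2 fold change was 7.26 (SE 0.30, adjusted p = 1.88e-127), and 8.94 without Unstimulated replicate 1, which held most of the resting reads.

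The long members rose next. Slfn9 rose from 179.7, 89.6 and 125.4 to 6932, 6109 and 7822 normalised counts, a log2 fold change of 5.69 (SE 0.17, adjusted p = 1.2e-232). Slfn8 rose from 914.1, 674.8 and 677.0 to 24050, 23480 and 27870 normalised counts, a log2 fold change of 5.05 (SE 0.13). Slfn5 rose from 3106, 1896 and 2099 to 45500, 44930 and 55130 normalised counts, a log2 fold change of 4.36 (SE 0.15, adjusted p = 5.78e-191). Mouse 1 had the highest resting count of each of these 3 genes and the smallest ratio of LPS to Unstimulated.

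Slfn3, which has been studied in the differentiation of gut epithelium, rose from 46.3, 47.4 and 32.2 to 694.2, 691.7 and 818.9 normalised counts. This was a log2 fold change of 4.17 (SE 0.20, adjusted p = 7.18e-99). Slfn2 rose from 2729, 1967 and 2142 to 31850, 34170 and 34290 normalised counts, the smallest change of the family at 3.87 (SE 0.10). Even so it stayed the most abundant member per length, at 1622, 1824 and 2014 TPM. In the LPS libraries the order by TPM was Slfn2, Slfn5, Slfn8, Slfn9, Slfn1, Slfn3 and Slfn4, and Slfn5 (585.9 to 822.5 TPM) and Slfn8 (494.0 to 656.7 TPM) were the neighbours whose ranges overlapped. The adjusted p of Slfn2 and Slfn8 was listed as 0, below the smallest number that the software stores.

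The direction held under each scaling, but its size did not. When libraries were scaled to their total counts, the median of all genes after LPS moved from -0.07 to -1.02 on the log2 scale, and 20.1% of called genes were higher in place of 49.0%. The log2 fold changes of the members then ran from 2.94 for Slfn2 to 6.96 for Slfn4, all of them called. Relative to the median of all genes, Slfn2 stood at 3.94 with the DESeq2 size factors and 3.96 with total counts, so the members' distance from the other genes hardly moved.

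Pretreatment with JQ1 lowered the resting level of 6 of the 7 members, beside 23.7% of all 13686 genes tested that were called lower and 21.9% called higher. The median log2 fold change of the members was -1.80 and that of all genes -0.001. Slfn9 was lowered most among the well-counted genes, to 40.6, 31.5 and 28.4 normalised counts (log2 fold change -2.0, SE 0.22, adjusted p = 3.41e-18). Slfn8 fell to 217.1, 220.8 and 217.1 normalised counts (log2 fold change -1.80, SE 0.14, adjusted p = 4.4e-36), so that the 3 JQ1 libraries were close to each other and far under the unstimulated range. Slfn3 fell to 19.0, 18.7 and 11.9 normalised counts (log2 fold change -1.30, SE 0.28, adjusted p = 1.14e-05).

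Slfn5 fell to 1119, 1017 and 1140 normalised counts (log2 fold change -1.12, SE 0.15, adjusted p = 8.07e-13). Slfn2 fell to 1175, 1129 and 1289 normalised counts (log2 fold change -0.93, SE 0.10, adjusted p = 1.52e-18). For the 5 genes named so far no JQ1 library reached the unstimulated range, and how common this was among all genes was not counted. Slfn5 was at 36.0%, 53.7% and 54.3% of the Unstimulated library in mice 1, 2 and 3. Slfn2 was at 43.1%, 57.4% and 60.15%, and Slfn8 at 23.75%, 32.7% and 32.1%. The fall of these genes was thus largest in mouse 1, whose Unstimulated library stood apart, while Slfn3 fell least there (41.1%, 39.55% and 37.0%). B cell markers, 2 of 4 above 3 counts at rest, summed to 2.34 to 5.13 TPM in Unstimulated and 0.20 to 0.50 TPM in JQ1, and their part was not tested. Slfn1 had 0 counts in all 3 JQ1 libraries against 21, 0 and 5 in the unstimulated ones, a level at least 2.36-fold lower when 3 counts per library are taken as the floor. That bound rests on Unstimulated replicate 1, without which the resting mean of 1.68 normalised counts lies under the floor of 2.77 and no bound remains. The Slfn1 call (adjusted p = 2.85e-05) held without Unstimulated replicate 1 (adjusted p = 0.0138) and with limma on log2(TPM + 0.1) (adjusted p = 0.0134). It was lost without mouse 1 (adjusted p = 0.0537), in the fit of these 2 groups alone (adjusted p = 0.25) and with limma on log2(TPM + 1) (adjusted p = 0.0513). Slfn4 was not called. It had 3.01, 0 and 1 counts against 8.24, 1.02 and 6.01, a ratio of Unstimulated to JQ1 of 3.62 with a counting interval of 1.15 to 15.0 (exact, 95%, counting error only). Its adjusted p was 0.0555, and it passed after a filter of at least 10 counts in 3 libraries (0.0494), with total-count size factors (0.0355) and without Unstimulated replicate 2 (0.0356).

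JQ1 also lowered the LPS-induced level of all 7 members, beside 32.9% of all 14326 genes tested that were called lower and 24.4% called higher in LPS + JQ1 against LPS. The median log2 fold change of the members was -1.67 and that of all genes -0.11. No LPS + JQ1 library overlapped an LPS library for any of them, and again the share of all genes with such a separation was not counted. The size differed widely between members: Slfn4 and Slfn1 kept a few percent of their LPS level and Slfn2 about 66.3%.

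Slfn4 stood at 16.6, 50.5 and 25.9 normalised counts in LPS + JQ1, which was 1.71%, 4.80% and 2.32% of the LPS library of the same mouse. The log2 fold change was -5.06 (SE 0.23, adjusted p = 4.56e-107). Slfn1 stood at 63.0, 65.3 and 46.8 normalised counts, or 5.52%, 5.78% and 3.72% of the LPS library, with a log2 fold change of -4.32 (SE 0.15, adjusted p = 2.73e-177). The T cell kinase gene Lck moved the same way between these groups, as given above, while Cd3e was at 0 in all LPS and LPS + JQ1 libraries. With 1 of 6 T cell markers above 3 counts, the list summed to 3.99 to 4.64 TPM in LPS and 0.33 to 0.63 TPM in LPS + JQ1. Macrophage markers summed to 12550 to 13700 TPM in LPS and to 17940 to 20540 TPM in LPS + JQ1. That rise was mostly Lyz2, at 9722 to 10570 TPM in LPS and 15140 to 17500 TPM in LPS + JQ1. Itgam fell from 179.1 to 207.8 TPM to 45.76 to 54.05 TPM, and Mertk and Cd68 were also lower without overlap. Adgre1, Csf1r and Mrc1 overlapped between these groups. B cell markers summed to 0.89 to 1.53 TPM in LPS and 0.10 to 0.68 TPM in LPS + JQ1, and dendritic cell markers to 2.08 to 2.82 TPM and 1.12 to 1.41 TPM. Of the dendritic cell markers, Xcr1 fell from 1.07 to 1.42 TPM to 0.05 to 0.18 TPM, and Clec9a was lower too. Zbtb46 (0.64 to 1.16 TPM and 0.71 to 1.2 TPM) and Flt3 overlapped. The part of these lists in the result was not tested.

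Slfn3 kept 16.5%, 24.2% and 17.6% of its LPS level, at 114.9, 167.4 and 144.0 normalised counts (log2 fold change -2.37, SE 0.17, adjusted p = 4.93e-44). Slfn8 kept 30.2%, 38.2% and 26.5%, at 7272, 8963 and 7396 normalised counts (log2 fold change -1.67, SE 0.13, adjusted p = 2.35e-39). Slfn9, its close relative by sequence, kept 33.0%, 38.7% and 27.8%, at 2290, 2364 and 2174 normalised counts (log2 fold change -1.61, SE 0.16, adjusted p = 6.06e-23). The 95% intervals of the Slfn8 change (-1.92 to -1.43) and the Slfn9 change (-1.92 to -1.30) overlapped, and the difference between these genes was not tested.

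Slfn5 kept 51.5%, 59.8% and 43.8% of its LPS level, at 23430, 26880 and 24120 normalised counts (log2 fold change -0.97, SE 0.15, adjusted p = 1.64e-10). Slfn2 kept 64.4%, 69.9% and 64.6%, at 20500, 23880 and 22150 normalised counts (log2 fold change -0.59, SE 0.10, adjusted p = 6.33e-09). Mouse 2 kept the largest share of the LPS level for each of the 7 genes. The Slfn2 call depended on the scaling: with total counts its log2 fold change was -0.22 (adjusted p = 0.0666), while the median of all genes rose to 0.25 and 64.8% of called genes were higher in place of 42.5%. With limma on log2(TPM + 1) the Slfn2 change was -0.29 (adjusted p = 0.0552). Relative to the median of all genes it was -0.48, -0.47 and -0.46 under these 3 scalings.

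**Figure D3:**
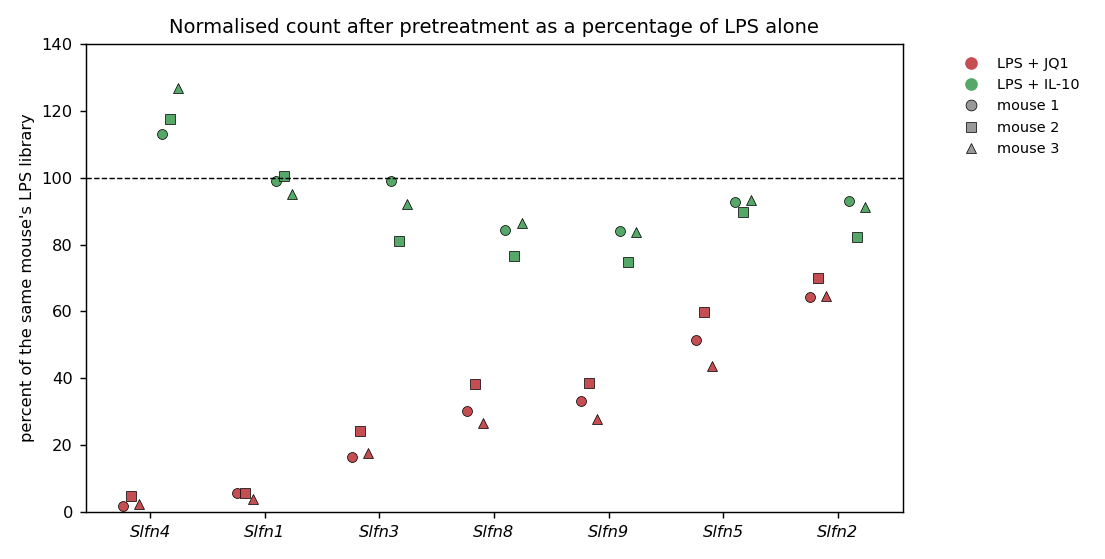
Normalised count in LPS + JQ1 and LPS + IL-10 as a percentage of the LPS library of the same mouse (y axis), for the 7 Schlafen genes in order of what JQ1 left (x axis), with a symbol for each mouse and a dashed line at 100%. With JQ1 the genes run from 1.71% for Slfn4 in mouse 1 to 69.9% for Slfn2 in mouse 2, and with IL-10 all values lie between 74.7% and 126.9%.

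The genes that share the run ACTTCCTGG were the 3 that JQ1 lowered most after LPS (Slfn4, Slfn1 and Slfn3) and also Slfn2, which it lowered least. The ISRE holders Slfn8, Slfn9 and Slfn5 lay between them, and the AP-1 letters were found before Slfn4 alone. Whether these letters have a part in the JQ1 effect was not tested. By order along the chromosome, the log2 fold changes were -0.97 (Slfn5), -1.61 (Slfn9), -1.67 (Slfn8), -0.59 (Slfn2), -4.32 (Slfn1), -5.06 (Slfn4) and -2.37 (Slfn3). Some neighbours thus differed widely, such as Slfn2 and Slfn1, and others were close, such as Slfn9 and Slfn8. A part of the position in the JQ1 effect was not tested.

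JQ1 did not abolish the response to LPS. In LPS + JQ1 against JQ1 all 7 members were higher, beside 27.6% of genes called higher and 31.0% called lower, and the median of the members was 4.68 against -0.08 for all genes. Slfn9 had a log2 fold change of 6.08 (SE 0.21), Slfn8 5.17 (SE 0.14), Slfn5 4.51 (SE 0.15), Slfn2 4.21 (SE 0.10) and Slfn3 3.10 (SE 0.26). Slfn1 was at least 21.1-fold higher, again with 3 counts per library as the floor. Slfn4 was 25.7-fold higher by summed counts, with a counting interval of 9.67 to 96.5, and its fitted log2 fold change moved from 4.68 to 6.04 without JQ1 replicate 1 and to 3.57 without mouse 2. Compared with the Unstimulated group, LPS + JQ1 was also higher for all 7 members, beside 30.1% called higher and 32.3% called lower, with log2 fold changes from 1.80 for Slfn3 to 4.08 for Slfn9. Those of Slfn1 (2.94) and Slfn4 (2.83) rested on few resting counts, and that of Slfn1 was 4.62 without Unstimulated replicate 1.

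Whether the effect of JQ1 differed with and without LPS was tested as an interaction, for which 17.7% of 12727 genes were called positive and 23.8% negative. Among the members 3 were called, a share near that of all genes. For Slfn3 the JQ1 effect was stronger after LPS, with an interaction of -1.07 on the log2 scale (SE 0.32, adjusted p = 0.00334), and for Slfn4 likewise with -3.21 (SE 0.86, adjusted p = 0.000785). For Slfn2 the JQ1 effect was weaker after LPS, with 0.34 (SE 0.14, adjusted p = 0.0415). Without mouse 1, with 2 libraries a group, none of the 3 passed. The Slfn3 value was then -0.97 (adjusted p = 0.0798), near that from all mice, while those of Slfn4 (-1.99, adjusted p = 0.369) and Slfn2 (0.19, adjusted p = 0.381) were smaller. With limma on log2(TPM + 0.1) the Slfn3 value was -0.59 and its call was lost as well (adjusted p = 0.111). The Slfn4 call was also lost without JQ1 replicate 1 (-1.85, adjusted p = 0.358) and with edgeR (-3.19, adjusted p = 0.0691). The Slfn2 call was lost without Unstimulated replicate 1 (interaction 0.20, adjusted p = 0.156), JQ1 replicate 1 or 2, LPS replicate 1 or 2, or LPS + JQ1 replicate 2 or 3, with values from 0.20 to 0.36 and adjusted p from 0.0523 to 0.156 over these fits. It was also lost without mouse 2 (0.35, adjusted p = 0.105) and in the fit of the groups compared alone (0.36, adjusted p = 0.0513). Scaled to total counts, where the median interaction of all genes was 0.51 and 85.3% of called genes were positive in place of 42.6%, the Slfn3 value was -0.51 (adjusted p = 0.189) and Slfn5, Slfn8 and Slfn9 were called positive instead.

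The interaction of Slfn5 (0.15, 95% interval -0.26 to 0.56) and that of Slfn8 (0.12, 95% interval -0.25 to 0.49) did not pass the test. Slfn9 had 0.39 (95% interval -0.14 to 0.93) and did not pass either. These intervals leave room for a difference of the JQ1 effect by about 0.5 on the log2 scale or, for Slfn9, 0.9. Slfn1 gave no usable value, since its JQ1 libraries were at 0 counts.

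**Figure D4:**
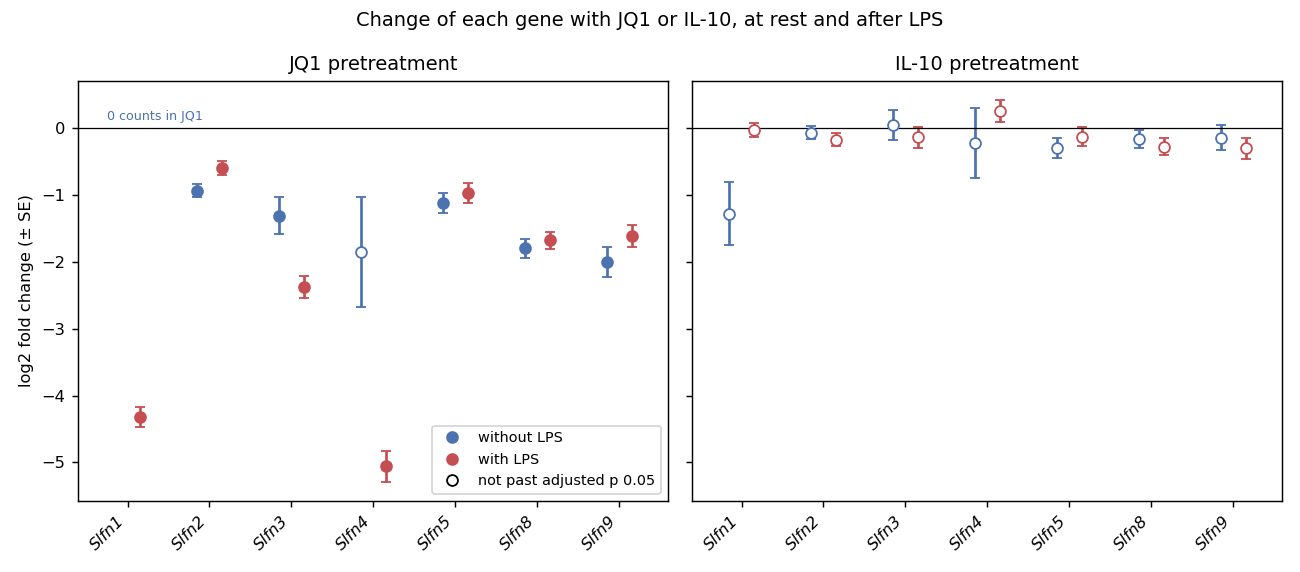
log2 fold change with its standard error (y axis) of each Schlafen gene (x axis) for JQ1 (left) and IL-10 (right), against untreated cells without LPS and with LPS, filled where the adjusted p was under 0.05. JQ1 values lie below 0 for each gene with LPS and reach -5.06 for Slfn4, and the IL-10 values are all open symbols. The Slfn1 value for JQ1 without LPS is not drawn because its JQ1 libraries had 0 counts.

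IL-10 gave no called change of any member. Against the Unstimulated group 0 of 7 members passed by DESeq2, edgeR or limma, and 2 had an unadjusted p under 0.05 (Slfn1 and Slfn5), beside 1.80% of genes called higher and 1.01% called lower. Slfn5 was at 2043, 1793 and 1955 normalised counts (log2 fold change -0.30, 95% interval -0.59 to -0.01, adjusted p = 0.497). Slfn2 was at 2209, 2109 and 2252 normalised counts (log2 fold change -0.06, 95% interval -0.26 to 0.14). Slfn1, with 10, 2 and 4 counts, had a log2 fold change of -1.28 (adjusted p = 0.148) that was 0.40 without Unstimulated replicate 1 and passed without Unstimulated replicate 2 (adjusted p = 0.0389) or 3 (adjusted p = 0.0163).

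After LPS, IL-10 left the members close to the LPS level. In LPS + IL-10 against LPS 0 of 7 passed by DESeq2, edgeR or limma and 1 (Slfn8) had an unadjusted p under 0.05, beside 8.38% of genes called higher and 8.81% called lower. Slfn8 was at 20270, 18000 and 24110 normalised counts, 84.3%, 76.6% and 86.5% of the LPS library of the same mouse (log2 fold change -0.27, 95% interval -0.52 to -0.03, adjusted p = 0.128). It passed without LPS + IL-10 replicate 3 (-0.39, adjusted p = 0.0132). Slfn9 was at 5830, 4560 and 6544 normalised counts, 84.1%, 74.7% and 83.7% of the LPS library (log2 fold change -0.30, 95% interval -0.61 to 0.01). Slfn4 was at 1095, 1237 and 1413 normalised counts, above the LPS library in each mouse at 113.0%, 117.6% and 126.9% (log2 fold change 0.26, 95% interval -0.07 to 0.58, adjusted p = 0.348). Slfn2 was at 29600, 28090 and 31330 normalised counts, all below the LPS libraries, at 93.0%, 82.2% and 91.4% of the same mouse, with a log2 fold change of -0.17 (95% interval -0.36 to 0.02, adjusted p = 0.262).

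Slfn1 (-0.03, 95% interval -0.23 to 0.17), Slfn3 (-0.13, 95% interval -0.44 to 0.17) and Slfn5 (-0.12, 95% interval -0.41 to 0.17) had overlapping libraries. Slfn3 was at 99.0%, 81.1% and 92.3% and Slfn5 at 92.6%, 89.6% and 93.2% of the LPS library of the same mouse. By normalised count Slfn2, Slfn3, Slfn5, Slfn8 and Slfn9 were thus each lower with IL-10 in all 3 mice. By TPM Slfn3 of mouse 1 was higher, at 33.94 TPM in LPS + IL-10 against 32.01 TPM in LPS. The share of all genes that were lower in all 3 mice was not counted. The fit with the mouse as a block called 0 of 7 members, with adjusted p of 0.144 for Slfn8, 0.159 for Slfn9, 0.271 for Slfn2, 0.665 for Slfn5 and 0.70 for Slfn3. For Slfn1, Slfn3 and Slfn5 the lower ends of the 95% intervals exclude a fall on the scale seen with JQ1. LPS raised all 7 members in the presence of IL-10 as well (LPS + IL-10 against IL-10), beside 33.2% of genes called higher and 33.8% called lower, with log2 fold changes from 3.76 for Slfn2 to 8.52 for Slfn1. The interaction of LPS and IL-10 was called for 0 of 7 members by DESeq2, edgeR or limma, with 1 (Slfn1) at an unadjusted p under 0.05, beside 4.00% of genes called positive and 3.44% called negative.

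The direct comparison of the pretreatments after LPS called all 7 members lower in LPS + JQ1 than in LPS + IL-10, beside 31.6% of genes called lower and 23.8% called higher. The log2 differences ran from -0.42 for Slfn2 (SE 0.10, adjusted p = 5.39e-05) through -0.85 for Slfn5, -1.31 for Slfn9, -1.40 for Slfn8, -2.24 for Slfn3 and -4.30 for Slfn1 to -5.32 for Slfn4 (SE 0.23, adjusted p = 1.75e-118). The Slfn2 difference was not called with total counts (-0.14, adjusted p = 0.27) or with limma on log2(TPM + 1) (-0.23, adjusted p = 0.134). Each of these comparisons shares libraries with another, so the agreement of their directions is not independent.

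The summed level of the family shows how the members' unequal changes add up. The 7 genes together made up 306.9 ± 66.3 TPM (SD, n = 3) in Unstimulated, 128.9 ± 11 TPM in JQ1 and 295.3 ± 19.4 TPM in IL-10. After LPS they made up 3314 ± 448 TPM in LPS, 2196 ± 263 TPM in LPS + JQ1 and 3157 ± 459 TPM in LPS + IL-10. The LPS + JQ1 libraries (1953 to 2475 TPM) lay below the LPS libraries (2946 to 3812 TPM) without overlap. Slfn2 made up 69.5% ± 1.45 of the sum in Unstimulated, 55.1% ± 2.24 in LPS and 67.8% ± 0.64 in LPS + JQ1. Slfn8 rose from 9.45% ± 0.37 to 16.6% ± 0.67 of the sum with LPS and stood at 9.52% ± 0.43 in LPS + JQ1. The TPM ratio of Slfn8 to Slfn9 was 6.13 ± 1.33 in Unstimulated, 3.63 ± 0.19 in LPS and 3.40 ± 0.29 in LPS + JQ1. The libraries with LPS alone (3.50 to 3.85) and with LPS + JQ1 (3.13 to 3.71) overlapped in this ratio.

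**Figure D5:**
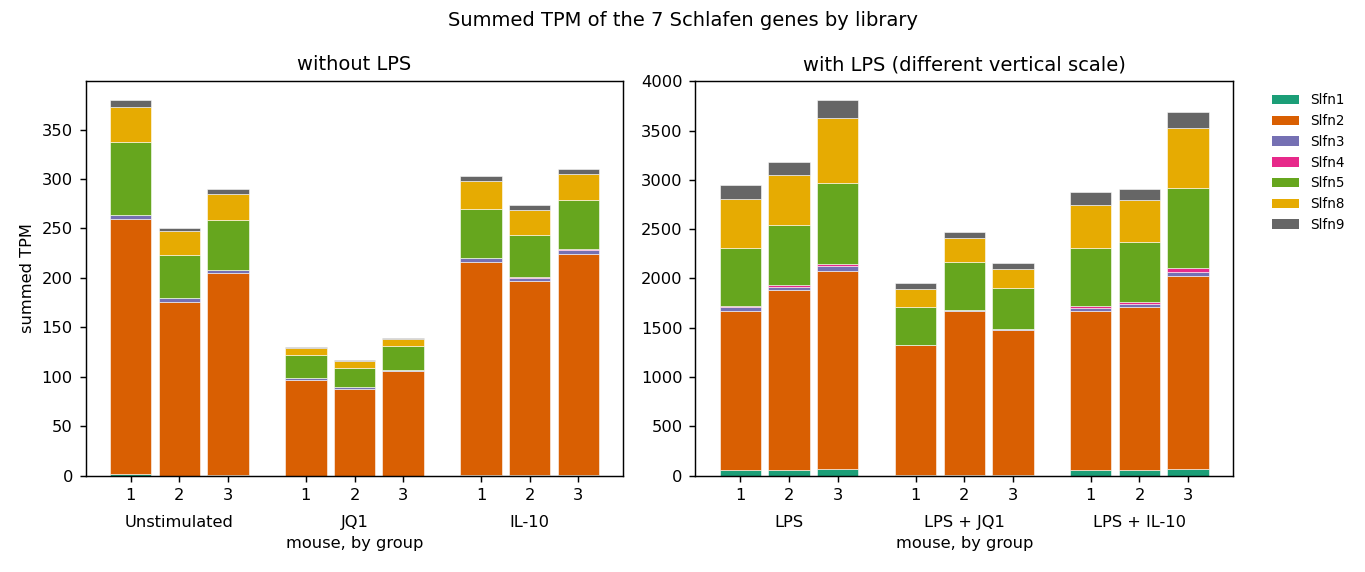
Summed TPM (y axis) of the 7 Schlafen genes in each library, stacked by gene and ordered by group and mouse, with a separate vertical scale for libraries without LPS (left) and with LPS (right). Slfn2 makes up the largest block in every library, and the LPS + JQ1 bars reach 1953 to 2475 TPM beside 2946 to 3812 TPM in LPS.

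Other Schlafen rows were measured as well. Slfn10-ps, a pseudogene inside the cluster, was at 535.4, 377.2 and 424.3 normalised counts in Unstimulated and at 641.9, 465.3 and 681.4 in LPS, ranges that overlapped (log2 fold change 0.41, SE 0.16, adjusted p = 0.0144). By TPM its mean was lower in LPS, at 14.2 (10.91 to 17.47) against 18.4 (14.81 to 22.35) in Unstimulated, so the direction of this change depended on the scaling. JQ1 lowered it to 112.4, 106.5 and 104.4 normalised counts at rest (log2 fold change -2.06, SE 0.17, adjusted p = 4.5e-32) and to 240.8, 278.0 and 222.8 after LPS (log2 fold change -1.27, SE 0.16, adjusted p = 2.09e-14). It shares sequence with Slfn8 and Slfn9, and reads assigned to it cannot be told apart from theirs in the shared stretches. Slfn14 did not pass 15.5 normalised counts in any library. Slfnl1, a more distant relative, had at most 2 counts, and the antisense row Slfn5os was listed at 0 in all 18 libraries.

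The type I interferon pathway, as a list of 24 genes from ligand to target, gives a yardstick for the family, and 23 of them were tested (the ligand gene Ifna4 was too low). LPS raised 22 and lowered 1, with a median log2 fold change of 6.94. JQ1 at rest raised 2 and lowered 17 (median -1.29), and JQ1 with LPS raised 2 and lowered 14 (median -0.86), beside -1.67 for the Schlafen members. IL-10 raised 0 and lowered 3 at rest (median -0.73), and raised 3 and lowered 3 after LPS. Without Unstimulated replicate 1, a fit added after seeing the data, LPS raised 22 and lowered 0 (median 7.47), JQ1 at rest raised 3 and lowered 15 (median -0.64), and IL-10 at rest raised 1 and lowered 1 (median -0.01). The background shares of the same comparisons are given above.

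The ligand gene Ifnb1 was at 0 counts in all Unstimulated libraries, at 113.1, 151.0 and 157.2 normalised counts in LPS, and at 2.21, 5.26 and 6.16 in LPS + JQ1 (log2 fold change -4.96, SE 0.52, adjusted p = 5.84e-21). Its percentage of the LPS level, 3.24%, was near that of Slfn4, 2.97%, and Slfn1, 4.96%. Unlike these genes, Ifnb1 also fell with IL-10 after LPS, to 74.4, 31.9 and 53.2 normalised counts (log2 fold change -1.40, adjusted p = 0.00034). The receptor gene Ifnar1 was higher in LPS + JQ1 than in LPS (log2 fold change 0.40, adjusted p = 1.2e-06).

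Of the factors downstream of the receptor, Irf9 (log2 fold change -1.06, adjusted p = 7.13e-44) and Stat2 (-0.86, adjusted p = 6.52e-07) fell with JQ1 after LPS, and so did Irf7 (-0.89, adjusted p = 0.0284). Among the targets, Ifit1 (-1.49, adjusted p = 0.000369) and Usp18 (-0.93, adjusted p = 0.00277) fell. Isg15 (-0.07, adjusted p = 0.842) and Rsad2 (-0.46, adjusted p = 0.338) did not pass. The targets ranged from Isg15 at 95.4% of its LPS level to Isg20 at 4.74%.

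Across all 18 libraries the members followed each other, with pairwise Pearson correlations of log2(normalised count + 1) from 0.914 (Slfn2 with Slfn4) to 0.998 (Slfn8 with Slfn9). These 18 points fall into groups with and without LPS and share mice, so the values describe a pattern and carry no p. Among 8378 genes with a mean of at least 100 normalised counts, the gene most like Slfn2 and most like Slfn5 was Ifit1 (r = 0.998 and 0.999). Slfn8 was most like Slfn9 (0.998), and Slfn9 most like the guanylate-binding gene Gbp3 (0.998). Slfn3 was most like Casp8 (0.995), which encodes an apoptotic caspase, and Slfn1 most like Tnfsf15 (0.994), which encodes a TNF family cytokine. Slfn4 was most like Isg20 (0.994), an interferon-induced exonuclease gene that JQ1 also lowered strongly after LPS.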

How the data were processed

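RNA was taken from the 18 cultures with a total RNA kit, and libraries were made with a stranded kit after ribosomal RNA removal and sequenced as paired reads of 50 bases. Per the labels and methods, the authors aligned reads to mm9 with STAR and estimated gene values with RSEM 1.2.31. The deposited expected counts are estimated reads per gene, not normalised, and the deposited TPM values are scaled per transcript length to the same sum in every library. RSEM defaults assign reads without regard to strand, so overlapping antisense transcription cannot be separated.

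Expected counts were rounded to whole numbers and fitted with DESeq2 1.42.0 (Wald test, median-of-ratios size factors, all 18 libraries, group as the only term), and p-values were adjusted over all genes. Calls used an adjusted p under 0.05. Alternatives were edgeR 4.0.16 (quasi-likelihood), limma 3.58.1 on log2(TPM + 1) and log2(TPM + 0.1), other size factors, a filter of at least 10 counts in 3 libraries, lane and mouse as terms, and leaving out each library or mouse. The DESeq2 script was tested on simulated data. A fold change on the log2(TPM + pseudocount) scale understates the change of low genes. No 2 libraries of a group agreed within sampling noise.

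Replicate numbers are read as the 3 mice, as the labels call the samples biologically matched and give 3 animals. Deviations of same-numbered libraries from their group means correlated on average at 0.53 for LPS + IL-10 against LPS and at -0.08 for LPS + JQ1 against LPS. In the latter the values were 0.24, -0.19 and -0.29 for replicates 1, 2 and 3, so these correlations do not bear out the pairing there. The percentages of the same mouse rest on this reading of the labels. Lane followed mouse (mouse 1 in lane 7, mouse 3 in lane 8, mouse 2 in lane 7 without LPS and lane 8 with it). The members, the interferon list and the markers were chosen with earlier results of these data known. All members are named, with the pathway genes Ifnb1, Ifnar1, Stat2, Irf9, Irf7, Isg15, Ifit1, Rsad2 and Usp18 and the genes most correlated with each member. Isg20 was named after its values were seen, and 1 further gene of the list is not reported here. Counting intervals and floors cover counting error only.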

Additional observations from a re-analysis of the deposited data

Results flagged for a closer look

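In 3 members the effect of JQ1 differed between cells with and without LPS by the interaction test of DESeq2, which is what marked them for a second look. Of all 12727 genes tested, 17.7% were called positive and 23.8% negative, so the count of members called was near the share of all genes. The interaction was 0.34 for Slfn2 (JQ1 lowered it less after LPS), -1.07 for Slfn3 and -3.21 for Slfn4 (JQ1 lowered them more after LPS), all on the log2 scale. The resting side of the Slfn4 value rests on 4 counts in the JQ1 libraries in all. Without mouse 1 none of the 3 was called, at 0.19 for Slfn2, -0.97 for Slfn3, which is near the value from all mice, and -1.99 for Slfn4.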

How the results depend on the processing

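With the mouse as a replicate block the same 7 members were counted as higher after LPS and the same 6 as lower with JQ1 at rest, and the paired fit changed no other call of a member, nor did lane as a term or TMM size factors. The count of members with a called interaction of LPS and JQ1, 3 here, was 5 with total-count size factors and 6 with limma on log2(TPM + 0.1), and between 0 and 3 when a library or mouse was left out. Of all genes, 5969 were called positive and 1026 negative of 13282 tested with total-count size factors. With limma on log2(TPM + 0.1) these were 5416 and 1068 of 11436. The counts for IL-10 against unstimulated, LPS + IL-10 against LPS and the interaction of LPS and IL-10, each 0, lay between 0 and 1 on leaving out a library or mouse. The Slfn1 interaction of LPS and JQ1 turned from 1.18 to -3.17 with limma on log2(TPM + 1) and to -2.08 on log2(TPM + 0.1), and ran from -0.64 to 1.70 over the fits that left out a library or mouse. Over those fits the Slfn5 interaction ran from -0.09 to 0.39, that of Slfn8 from -0.038 to 0.33, Slfn1 in IL-10 against unstimulated from -1.80 to 0.40, and the Slfn1 interaction of LPS and IL-10 from -0.43 to 1.77. Each change of sign on leaving out samples came from the fits without Unstimulated replicate 1 or without mouse 1. The causes were not tested. Of 1168 values of members under alternatives, 1117 kept direction and side of the threshold, 25 lost a call, 14 gained one and 12 changed sign. Depth limits Slfn1 and Slfn4 without LPS, whose libraries held at most 21 counts.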
